A study of Mus musculus with 48 samples.

Results

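Palmitate and oleate, a saturated and a monounsaturated fatty acid, were compared as the fat of a starch diet, by the expression of immune genes in mouse epididymal white adipose tissue, the visceral fat pad beside the epididymis. The comparison takes the 7 samples of the starch/palmitate diet against the 9 of the starch/oleate diet, chosen by their diet labels and by no measured value, 16 of the 48 samples in the series. All mice were C3H/HeOuJ, an inbred strain with a working Tlr4, and stayed on their diet for 6 months; the labels do not say that each sample is a separate animal, so the p-values below measure the spread between samples. Both starch diets were custom formulas that drew 42% of calories from carbohydrate and 42% from fat, as did the sucrose/palmitate (n = 8) and sucrose/oleate (n = 9) diets used further on, and a Western diet group completes the fit. Chow, the control diet (n = 8), differs from the starch diets in more than its fat, and the age of the mice is not given in the labels. By its title the study is about macronutrients and the axis of fat and liver, and the question here is what the kind of fat did to the fat pad when the carbohydrate was starch.

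In obesity, adipose tissue gathers macrophages, many of them around dying adipocytes, and these cells take up lipid and express receptors such as Trem2 and Itgax. Adipocytes secrete factors such as adipsin and depend on the nuclear receptor Pparg, and adipsin is known to fall in obese mice. Fatty acids, iron and antigen-presenting molecules such as Cd1d1 link the adipocytes, vessels and immune cells of the pad.

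The NanoString panel read 547 immune genes with barcoded probes, of which 491 averaged 10 or more counts across the 48 samples and were tested. Counts over the gene probes summed to 474456 to 888687 per sample on starch/palmitate and to 575868 to 755967 on starch/oleate. Every level below is a count scaled to 14 reference genes, and every difference is a log2 difference ± SE, starch/palmitate minus starch/oleate, from edgeR's quasi-likelihood test with all 48 samples in one fit. A gene is said to have risen or fallen when its Benjamini-Hochberg adjusted p was below 0.05, and each gene's level is given as the lowest, the median and the highest sample of a group. Adipocyte (Cfd, Pparg, Cd36), macrophage (Emr1, Csf1r) and endothelial (Pecam1, Cdh5) genes were all measured well above the negative controls, which averaged 7.51 counts and reached 21. Starch/palmitate replicates 1 and 3 and starch/oleate replicates 2 and 6 held far more RNA of epithelial genes than the other samples, and results that rest on them are given with and without them. In whole tissue, fewer cells of a type and less of a transcript per cell cannot be told apart.

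Of the 491 genes, 160 differed (32.6%): 41 were higher on starch/palmitate (8.35%) and 119 lower (24.2%), while 218 had an unadjusted p below 0.05. Among the genes that rose were Cfd and Pparg of adipocytes, Cd1d1, and Cdh5 and Pecam1 of endothelium. These lists did not rise as a whole: 2 of 4 adipocyte genes did not pass. Of 15 endothelial and adhesion genes 4 rose and 6 fell. Among those that fell were 11 of 18 pan-macrophage genes, 8 of 13 B cell genes, 4 of 8 Fc receptor genes and Tfrc, the transferrin receptor. The median difference over all 491 genes was -0.13, so the balance of rises and falls depends on the scaling. With TMM scaling, which assumes that the bulk of genes is level, that median was 0.02 and 149 genes changed (30.3%), 82 higher (16.7%) and 67 lower (13.6%); all 41 rises and 67 of the 119 falls were kept, and 1 of the 160 genes changed sign. Without starch/palmitate replicate 3 the number of rises was 27. For 13 genes (2.65%) the groups did not overlap at all: Cfd, Pparg, Cd1d1, Bcap31, Map4k4 and Zeb1 were higher on starch/palmitate (1.22%), and Tfrc, Tgfbr1, Cxcl12, Cd9, Blnk, Ifngr2 and Tollip were lower (1.43%).

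**Figure D1:**
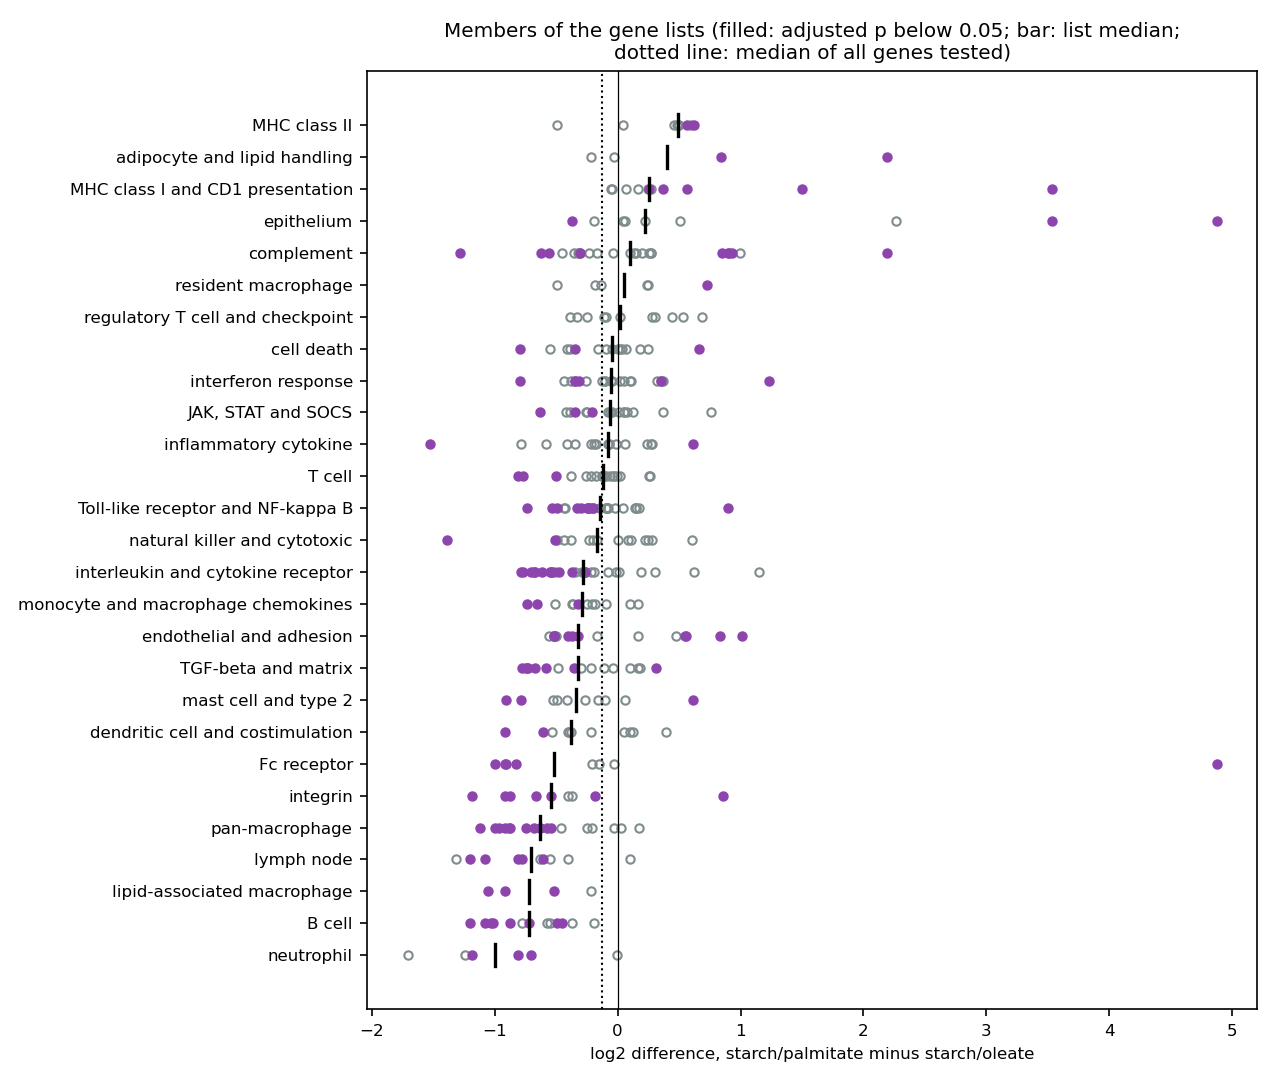
Log2 differences, starch/palmitate minus starch/oleate, of the tested members of 27 gene lists. Filled points passed the test, each bar is the list's median and the dotted line is the median of all genes, -0.13. The medians of the adipocyte, MHC class II and resident macrophage lists lie to its right. Those of the pan-macrophage, lipid-associated macrophage, B cell and neutrophil lists lie to its left, and single members can lie on either side.

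Of 4 adipocyte and lipid genes on the panel 2 rose on starch/palmitate, Cfd and Pparg, where 8.35% of all genes rose. Cfd encodes adipsin, a serine protease of the alternative complement pathway that adipocytes secrete. Its counts on starch/palmitate were 10964, 16124 and 26812, against 1089, 3518 and 7957 on starch/oleate, so the lowest starch/palmitate sample was above the highest starch/oleate sample. Cfd rose by 2.19 ± 0.45 (adjusted p = 0.0003925), or 4.57-fold. Chow samples held 18982, 40100 and 222161, and both starch diets averaged below chow. Pparg, the nuclear receptor that drives adipocyte differentiation, had counts of 480.5, 692 and 889 on starch/palmitate and 271, 379.5 and 421 on starch/oleate. It rose by 0.84 ± 0.15 (adjusted p = 0.000104), again with no overlap. The other 2 did not pass: Cebpb, a factor of adipocyte differentiation, differed by -0.03 and Cd36, the fatty acid transporter, by -0.22 ± 0.15 (adjusted p = 0.251), with counts of 42611, 53437 and 64250.2 on starch/palmitate and 45351, 66029.7 and 70706 on starch/oleate. The median over the 4 genes was 0.41.

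The region before the Cfd start site is shown in RefSeq sequence, 5′ to 3′ on the plus strand of GRCm38.p6, chr10:79890603-79890902, from 250 bases before the start to 50 after it. It stands beside the promoters of 2 genes that fell, given further on, because these 3 genes carry the main directions of the comparison. Capitals in these sequences mark 3 motifs searched on both strands: GAGGAA, the core of sites of the macrophage factor PU.1, AGGTCA, the half-site of nuclear receptors such as Pparg, and ACGTG, the core of the hypoxia response element. No motif contains another, and the Cfd window holds none of them.
Cfd promoter: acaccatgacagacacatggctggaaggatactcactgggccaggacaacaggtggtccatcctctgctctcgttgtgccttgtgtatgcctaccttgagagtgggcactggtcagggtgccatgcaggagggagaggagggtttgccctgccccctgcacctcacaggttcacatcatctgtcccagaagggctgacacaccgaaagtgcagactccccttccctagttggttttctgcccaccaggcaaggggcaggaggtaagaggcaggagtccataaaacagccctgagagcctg

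Cd1d1 was higher in every starch/palmitate sample than in any starch/oleate sample. It encodes CD1d, a presenter of lipid antigens to natural killer T cells that adipocytes make as well as immune cells. Samples on starch/palmitate had 3066, 5769 and 7598 counts and those on starch/oleate 1051, 2050.5 and 2848, the closest being starch/palmitate replicate 4 and starch/oleate replicate 6. The difference was 1.497 ± 0.21 (adjusted p = 1.31e-06), or 2.82-fold. Bcap31, a chaperone of the endoplasmic reticulum that carries membrane proteins including class I molecules, rose by 0.56 ± 0.079 (adjusted p = 1.31e-06), with 3425, 4436 and 5104 counts on starch/palmitate and 2731, 3048 and 3242 on starch/oleate. Map4k4, a kinase, rose by 0.42 ± 0.10 (adjusted p = 0.000946) and Zeb1, a transcription factor, by 0.34 ± 0.11 (adjusted p = 0.0162), both without overlap and both named here because of that.

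**Figure D2:**
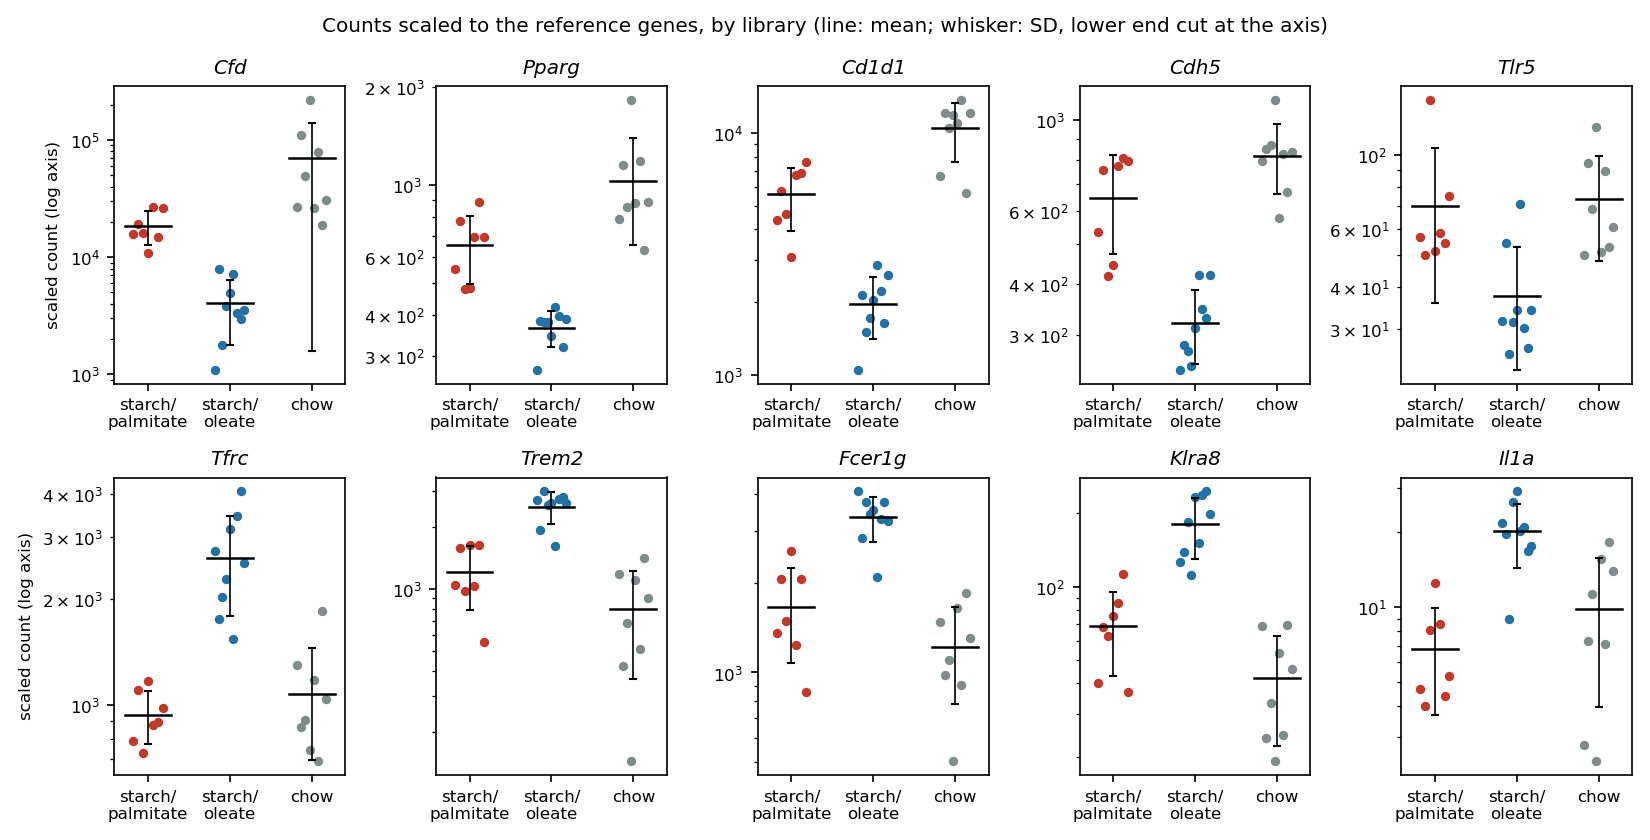
Counts scaled to the reference genes, on log axes, for 10 genes in each starch/palmitate, starch/oleate and chow sample; lines are means and whiskers the SD. The upper row shows 5 genes higher on starch/palmitate than on starch/oleate and the lower row 5 genes lower; for Cfd, Pparg, Cd1d1 and Tfrc the 2 starch groups do not overlap.

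Of 15 endothelial and adhesion genes tested 4 rose on starch/palmitate (Cd164, Cdh5, Icam2 and Pecam1) and 6 fell, with a median of -0.32, where 8.35% of all genes rose and 24.2% fell. Cdh5, which encodes VE-cadherin, the adhesion molecule of endothelial junctions, had 418, 755 and 809 counts on starch/palmitate and 247, 312 and 420.4 on starch/oleate. Of the starch/palmitate samples, 6 of 7 were above the highest starch/oleate sample, and Cdh5 rose by 1.01 ± 0.16 (adjusted p = 1.39e-05). Pecam1, the endothelial marker CD31, rose by 0.55 ± 0.16 (adjusted p = 0.00799), and Icam2, a constitutive endothelial ligand of integrins, by 0.56 ± 0.15 (adjusted p = 0.00382). Cd164, a sialomucin, rose by 0.83 ± 0.13 (adjusted p = 1.4e-05) and Itga6, a laminin receptor subunit of endothelium and other cells, by 0.86 ± 0.15 (adjusted p = 3.62e-05). The genes of that list that fell were Cd9, Cd97, Cd99, Entpd1, Icam1 and Vcam1, of which Icam1 and Vcam1 are adhesion molecules that cytokines induce on vessels. With TMM scaling the 4 rises became 6 and the 6 falls 2. Fas, the death receptor, also rose, by 0.66 ± 0.17 (adjusted p = 0.00346).

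Most pan-macrophage genes fell on starch/palmitate. Of the 18 genes of the pan-macrophage list 11 fell and 0 rose, against 24.2% falls among all genes, and the list's median difference was -0.63. The genes that fell were Cd14, Csf1r, Cybb, Fcer1g, Itgam, Lilrb3, Lilrb4, Ly96, Msr1, Syk and Tyrobp; the count was 8 with TMM scaling and also 8 without the 4 starch libraries and the 1 Western diet library rich in epithelial RNA. With the mean of a lymph node list, described with the B cells, as a covariate 0 passed in edgeR, and 8 had an unadjusted p below 0.05. Summed over the list, counts ran from 19550 to 52740 on starch/palmitate, from 41550 to 71250 on starch/oleate and from 9182 to 37130 on chow. Emr1, which encodes the marker F4/80, had 1645, 3559 and 5455 counts on starch/palmitate and 4049, 5151 and 6401 on starch/oleate, and missed the threshold with -0.64 ± 0.26 (adjusted p = 0.0572). Without starch/palmitate replicate 4, the sample with the highest macrophage counts of its diet, Emr1 passed (adjusted p = 0.0174), as it did without starch/oleate replicate 2 (0.0498) or replicate 6 (0.0469).

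Trem2 encodes a lipid-sensing receptor of macrophages that surround lipid-laden or dying cells. It had 555, 1051 and 1640.2 counts on starch/palmitate and 1615, 2645 and 3009 on starch/oleate, and 5 of 7 starch/palmitate samples were below the lowest starch/oleate sample. Trem2 fell, with a difference of -1.06 ± 0.30 (adjusted p = 0.00781); the adjusted p was 0.0827 with the lymph node covariate. Its window on GRCm38.p6, plus strand, chr17:48346151-48346450, holds GAGGAA on the opposite strand (TTCCTC) at -40 from the start and AGGTCA on the opposite strand (TGACCT) at -68.
Trem2 promoter: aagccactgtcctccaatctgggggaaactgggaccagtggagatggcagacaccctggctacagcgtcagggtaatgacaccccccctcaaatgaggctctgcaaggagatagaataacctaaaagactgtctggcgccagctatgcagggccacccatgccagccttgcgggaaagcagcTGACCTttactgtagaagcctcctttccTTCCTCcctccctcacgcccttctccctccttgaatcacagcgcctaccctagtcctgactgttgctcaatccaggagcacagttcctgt

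GAGGAA in either direction is common: it stood in this window for 41 of 90 genes that fell and have a promoter in the table (45.6%), 6 of 29 that rose (20.7%), 40.8% of the 368 tested genes with one and 31.3% of all 27025 genes. AGGTCA stood in 14.4% of the genes that fell, 24.1% of those that rose and 18.1% of all, and ACGTG in 12.2%, 17.2% and 21.8%. A match is a string of letters and not a bound site.

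Adaptors that myeloid receptors signal through, Tyrobp and Fcer1g, fell as well. Tyrobp, the adaptor DAP12 through which Trem2 signals, had 5856, 9922 and 16597 counts on starch/palmitate, against 14448, 22042 and 25037 on starch/oleate, a difference of -0.92 ± 0.28 (adjusted p = 0.0114). Fcer1g, the common gamma chain of activating Fc receptors, differed by -1.002 ± 0.25 (adjusted p = 0.00261), with 6 of 7 starch/palmitate samples below the lowest starch/oleate sample. Itgax, which encodes CD11c and marks the macrophages that enter adipose tissue in obesity, had 2100, 3699 and 4431 counts on starch/palmitate and 4231, 7107 and 9442 on starch/oleate, a difference of -0.92 ± 0.33 (adjusted p = 0.0315). That call was lost without starch/palmitate replicate 3 (adjusted p = 0.0573), 5 (0.0532) or 7 (0.0765), without starch/oleate replicate 3 (0.0581), and with TMM scaling (0.07175). Cd9, a tetraspanin of the same macrophages and of other cells, fell by 0.52 ± 0.17 on the log2 scale (adjusted p = 0.0206), with no overlap between the diets; without starch/palmitate replicate 7 the adjusted p was 0.0508, and with TMM scaling 0.0874. Trem2, Itgax and Cd9 are 3 of the 4 lipid-associated macrophage genes on the panel, Cd36 being the other, where 24.2% of all genes fell. With TMM scaling 1 of the 4 fell, and likewise 1 without starch/palmitate replicate 7.

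Leukocyte integrin genes and the inhibitory receptor gene Lilrb4 fell too. Itgb2, the CD18 chain shared by the leukocyte integrins, had 1561, 2762 and 4447 counts on starch/palmitate and 3409, 7888 and 8384 on starch/oleate, a difference of -1.18 ± 0.31 (adjusted p = 0.00418). Starch/oleate replicate 6 held the lowest count of its diet, and the other 8 samples held at least 6389. Itgam, which encodes CD11b, differed by -0.88 ± 0.23 (adjusted p = 0.00382). Lilrb4, an inhibitory receptor now named Lilrb4a, had 1979, 3417 and 6615 counts on starch/palmitate and 4721, 9547 and 11649 on starch/oleate, a difference of -1.12 ± 0.32 (adjusted p = 0.00696). In the integrin list 6 of 9 genes fell and 1, Itga6, rose, where 24.2% of all genes fell and 8.35% rose. The integrin falls were 3 without starch/palmitate replicate 7. In the neutrophil list 3 of 6 fell, Csf3r and Itgb2 among them, and 1 was left without starch/palmitate replicate 1, 5, 6 or 7 or starch/oleate replicate 1, 6 or 8.

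In the list of 6 resident macrophage genes 1 rose, where 8.35% of all genes rose, 0 passed as lower, and the median was 0.05. Cd163, the haemoglobin scavenger receptor of resident macrophages, had 239.7, 495 and 621 counts on starch/palmitate, against 314, 383 and 526 on starch/oleate, a difference of 0.25 ± 0.24 (adjusted p = 0.456). Ccl24, a chemokine that attracts eosinophils and the gene of that list that passed, rose by 0.73 ± 0.22 (adjusted p = 0.0116). Among 12 monocyte and macrophage chemokines 3 fell, Ccl6, Csf1 and Cxcl12, a share near the 24.2% over all genes. Ccl2, the main chemoattractant of monocytes, did not pass (-0.25 ± 0.24, adjusted p = 0.456), with 652, 919 and 1294 counts on starch/palmitate and 883, 1064 and 1907 on starch/oleate. Cxcl12, the stromal ligand of Cxcr4, had 2021, 2791 and 3632 counts on starch/palmitate and 4102, 4486 and 5837 on starch/oleate, so the diets did not overlap; the difference was -0.74 ± 0.15 (adjusted p = 0.000302).

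Tfrc, which encodes transferrin receptor 1, the receptor through which cells import iron, was lower on starch/palmitate than on starch/oleate in every sample. Counts were 727, 893 and 1165 on starch/palmitate and 1539, 2542 and 4066 on starch/oleate, and chow samples held 688, 972 and 1849. The difference was -1.49 ± 0.21 (adjusted p = 1.31e-06), or 2.81-fold lower, and no single library or alternative setting ended the call. Starch/palmitate differed from chow by -0.20 ± 0.21 (adjusted p = 0.484) and starch/oleate by 1.29 ± 0.20 (adjusted p = 8.77e-07). The window of the first of 2 start sites listed for Tfrc, plus strand of GRCm38.p6, chr16:32608646-32608945, holds ACGTG at -2.
Tfrc promoter: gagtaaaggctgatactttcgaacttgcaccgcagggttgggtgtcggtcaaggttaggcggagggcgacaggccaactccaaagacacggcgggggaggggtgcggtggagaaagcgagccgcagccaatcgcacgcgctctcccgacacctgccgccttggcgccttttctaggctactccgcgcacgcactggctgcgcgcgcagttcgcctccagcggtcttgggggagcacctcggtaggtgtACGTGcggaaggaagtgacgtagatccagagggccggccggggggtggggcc

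Of 8 Fc receptor genes tested, 4 fell on starch/palmitate (Fcer1a, Fcer1g, Fcgr2b and Fcgr3) and 1, the epithelial receptor Pigr, rose. Of all genes 24.2% fell and 8.35% rose. Fcgr1 (-0.20), Fcgr4 (-0.03) and Fcgrt (-0.15) did not pass. Fcgr2b, the inhibitory receptor for IgG, had 1215, 1690.4 and 2628 counts on starch/palmitate and 2008, 3318 and 4881 on starch/oleate, a difference of -0.92 ± 0.20 (adjusted p = 0.000669). Fcer1a, the chain of the IgE receptor that mast cells and basophils carry, had 34.4, 41.3 and 58.2 counts on starch/palmitate and 45.1, 87.6 and 144 on starch/oleate, a difference of -0.91 ± 0.22 (adjusted p = 0.002365). Il1rl1, the receptor for interleukin 33 on mast cells, regulatory T cells and type 2 lymphoid cells, fell too, at -0.78 ± 0.20 (adjusted p = 0.00346). In the mast cell and type 2 list 2 of 10 genes fell, Fcer1a and Il1rl1, and 1 rose, where 24.2% of all genes fell and 8.35% rose. Kit, the stem cell factor receptor of mast cells, did not pass (-0.49 ± 0.21, adjusted p = 0.0692); it passed without starch/palmitate replicate 7 (0.0266) or starch/oleate replicate 6 (0.039).

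Of 13 B cell genes tested, 8 fell on starch/palmitate and 0 rose, with a median of -0.72, where 24.2% of all genes fell; Blnk, Btk, Cd22, Cd79b, Ms4a1, Prdm1 and Tnfrsf13c were among those that fell. Cd22, an inhibitory lectin of B cells, had 50.8, 90.9 and 168 counts on starch/palmitate and 124, 198 and 253 on starch/oleate, a difference of -1.01 ± 0.26 (adjusted p = 0.00382). Cd79b, a signalling chain of the B cell receptor, differed by -1.03 ± 0.37 (adjusted p = 0.0314) and Ms4a1, which encodes CD20, by -1.08 ± 0.43 (adjusted p = 0.0499). Ms4a1 counts were 28.6, 77.2 and 217 on starch/palmitate and 60, 172 and 265 on starch/oleate. The call of Cd79b was lost without starch/palmitate replicate 1, 2, 3, 5 or 7 or starch/oleate replicate 5 (adjusted p up to 0.0693), and that of Ms4a1 without any of 13 of the 16 libraries, all but starch/palmitate replicate 4 and starch/oleate replicates 4 and 9 (up to 0.101). Blnk, an adaptor of the B cell receptor that macrophages also express, had 849, 1390.5 and 1601 counts on starch/palmitate and 1977, 2161 and 2429 on starch/oleate with no overlap, a difference of -0.72 ± 0.22 (adjusted p = 0.01205). Starch/palmitate replicate 4 held the most Ms4a1 of its diet, and starch/oleate replicate 4 the least of its own.

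Without the libraries rich in epithelial RNA 4 B cell genes fell, and Cd79b (adjusted p = 0.197) and Ms4a1 (0.278) did not. The count was 5 without starch/palmitate replicate 1 or 2 or starch/oleate replicate 5 or 8, 4 without starch/palmitate replicate 5 or 7, and 4 when scaled to the 8 reference genes that did not pass between the diets. Lymph node genes, which mark nodes that can lie within a dissected pad, moved with the B cell genes: 5 of 10 fell, where 24.2% of all genes fell. Among them were Ccr7, Cxcr4 and Ms4a1. The list's summed counts ran from 967 to 2711 on starch/palmitate, from 2031 to 3398 on starch/oleate and from 715 to 1785 on chow. The 5 became 2 without starch/palmitate replicate 1, 5 or 7 or starch/oleate replicate 8, 3 without starch/oleate replicate 1, 5, 6 or 7, and 1 without the libraries rich in epithelial RNA. With the mean of this list as a covariate, which shares Ms4a1 and other genes with the B cell list, 61 of all genes changed, 37 higher and 24 lower, and 0 B cell genes passed in edgeR, 3 having an unadjusted p below 0.05. Of the described genes outside the B cell list, B2m, C3, C8g, Cd4, Cd46, Cd9, Fas, Fcer1a, Fcer1g, Hc, Itgam, Itgax, Lilrb4, Mme, Nos2, Tlr5, Tnfaip3, Trem2, Tyrobp, Xcl1 and Zeb1 missed the threshold in that fit with their direction kept, at adjusted p from 0.0533 (Fcer1g) to 0.457 (Xcl1). The part of lymph node tissue in these falls was not tested otherwise.

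Few T cell and natural killer genes passed. Of 18 T cell genes 3 fell (Cd4, Il7r and Thy1) and 0 rose, where 24.2% of all genes fell and 8.35% rose. The median of the list was -0.12, close to the -0.13 of all genes. Cd3e, a chain of the T cell receptor complex, had 23.2, 30.2 and 85 counts on starch/palmitate and 28.8, 49.6 and 89.8 on starch/oleate (-0.07 ± 0.32, adjusted p = 0.894), and Cd8a had 7.1, 14.8 and 35.4 and 8.9, 10.4 and 31.3 in the same order (0.26 ± 0.30, adjusted p = 0.524). Both Cd8a medians lay below the highest negative control count, so a change in Cd8a could have been missed. Cd4, the coreceptor of helper T cells that some macrophages also carry, fell to 21.3, 40.2 and 51.6 counts on starch/palmitate, against 39.7, 61.4 and 139 on starch/oleate, a difference of -0.81 ± 0.25 (adjusted p = 0.0114). The T cell falls were 1 without starch/palmitate replicate 1, 5 or 7 or starch/oleate replicate 4. Of 11 regulatory T cell and checkpoint genes 0 passed in edgeR or DESeq2, 3 had an unadjusted p below 0.05, 3 passed as higher with TMM scaling, and the median was 0.02. Among 15 natural killer and cytotoxic genes 2 fell, Klra8 and Xcl1; the count was 1 without starch/palmitate replicate 1, 2, 5 or 7 or starch/oleate replicate 2, 3, 5, 7 or 8, 3 without starch/palmitate replicate 4 or starch/oleate replicate 1, and 4 without starch/palmitate replicate 3.

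Klra8 is a member of the Ly49 receptor family of natural killer cells, whose members are alike in sequence and vary between mouse strains, and which of them the probe read was not tested. Counts were 37, 68.3 and 112 on starch/palmitate and 112, 184 and 247 on starch/oleate; 6 of 7 starch/palmitate samples lay below the lowest starch/oleate sample. The difference was -1.39 ± 0.24 (adjusted p = 4.81e-05). Xcl1, a chemokine of activated lymphocytes, differed by -0.51 ± 0.20 (adjusted p = 0.0427), a call lost without starch/palmitate replicate 1, 2, 5 or 7 or starch/oleate replicate 2, 3, 5, 7 or 8 (adjusted p up to 0.105). Il12rb2, the interleukin 12 receptor chain of natural killer and T helper 1 cells, had 18, 34.4 and 39.2 counts on starch/palmitate and 34.5, 65.5 and 76.1 on starch/oleate, a difference of -1.04 ± 0.21 (adjusted p = 0.000314).

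Of 16 genes of the transforming growth factor beta pathway and of matrix turnover, 7 fell on starch/palmitate (Cd44, Lair1, Pdgfb, Plaur, Tgfb1, Tgfbr1 and Tgfbr2) and 1, Smad5, rose, with a median of -0.33, where 24.2% of all genes fell. The other 8, Cd34, Fn1, Pdgfrb, Plau, Smad3, Tgfb2, Tgfb3 and Tgfbi, did not pass, with differences from -0.48 (Fn1) to 0.18 (Tgfb2). With TMM scaling 5 fell, and without starch/palmitate replicate 7 the falls were 4, while Smad5 lost its call without starch/palmitate replicate 3, 5 or 7 or starch/oleate replicate 1. Tgfb1, the cytokine, had 985, 1256 and 1912 counts on starch/palmitate and 1617, 2442 and 2721 on starch/oleate, a difference of -0.74 ± 0.16 (adjusted p = 0.000769). Tgfbr1, its type I receptor, had 1204, 1561 and 1803 counts on starch/palmitate and 1853, 2628 and 3278 on starch/oleate, with no overlap and a difference of -0.67 ± 0.13 (adjusted p = 0.000275). Pdgfb, a growth factor for pericytes and fibroblasts, differed by -0.59 ± 0.12 (adjusted p = 0.000501). Plau, the urokinase that activates plasmin, missed the threshold (-0.29 ± 0.14, adjusted p = 0.089).

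Few classical inflammatory genes passed: of 17 tested, 1 rose (Nos2) and 1 fell (Il1a), where 8.35% of all genes rose and 24.2% fell. The falls were 4 without starch/palmitate replicate 4 and 2 without replicate 6 or 7. Il1b, Il6 and Tnf, the best known cytokines of inflamed adipose tissue, did not pass: Il1b differed by -0.34 ± 0.46 (adjusted p = 0.5995), Il6 by 0.24 ± 0.26 (adjusted p = 0.523) and Tnf by -0.58 ± 0.26 (adjusted p = 0.0813). Il6 had 8.3, 12.5 and 21.8 counts on starch/palmitate and 7.7, 10.1 and 19.9 on starch/oleate. These lie within reach of the negative controls, so a change in Il6 could have been missed. Tnf counts were 12.7, 26 and 47.6 on starch/palmitate and 28.3, 43.5 and 53.3 on starch/oleate, and Tnf passed as lower without starch/palmitate replicate 4 (0.0258) or 6 (0.0436). Il1a, an alarmin of the interleukin 1 family, had 4, 5.3 and 12.5 counts on starch/palmitate and 9, 20.2 and 29.3 on starch/oleate, a difference of -1.53 ± 0.30 (adjusted p = 0.000275). All starch/palmitate counts and the starch/oleate median were below the highest negative control count. Nos2, the inducible nitric oxide synthase, had 17.7, 24.9 and 31.6 counts on starch/palmitate and 4, 14.5 and 24.9 on starch/oleate (0.62 ± 0.21, adjusted p = 0.0227), also near that range, and its call was lost without starch/palmitate replicate 6 (0.0583) or 7 (0.0509).

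Of 28 interleukin and cytokine receptors 12 fell and 0 rose, where 24.2% of all genes fell, with 4 falls and 1 rise under TMM scaling; the falls were 7, 6 and 5 without starch/palmitate replicate 3, 5 and 7. Of 27 genes for Toll-like receptors and the NF-kappa B pathway 10 fell and 1 rose, with a median of -0.15, near that of all genes; with TMM scaling 2 fell and 3 rose, and without starch/palmitate replicate 5 or 7 the falls were 6. Of 17 genes for JAK kinases, STATs and SOCS inhibitors 3 fell (Ptpn6, Stat6 and Tyk2) and 0 rose, with a median of -0.06. Over all genes 24.2% fell and 8.35% rose. Tnfaip3, the NF-kappa B inhibitor A20, was among the NF-kappa B genes that fell, at -0.54 ± 0.13 (adjusted p = 0.00243). Tollip, an inhibitor of Toll-like receptor signalling, differed by -0.20 ± 0.075 (adjusted p = 0.0345) without overlap, but by -0.04 with TMM scaling (adjusted p = 0.8245), and the call was lost without starch/palmitate replicate 2, 6 or 7 or starch/oleate replicate 3 (adjusted p up to 0.0686). Tlr4, the endotoxin receptor, did not pass (-0.25 ± 0.14, adjusted p = 0.156). Tlr5, the flagellin receptor, rose to 50.1, 56.7 and 147 counts on starch/palmitate, against 25.3, 31.8 and 71 on starch/oleate, by 0.90 ± 0.23 (adjusted p = 0.00382). Its highest sample was starch/palmitate replicate 3, without which it rose by 0.61 (0.0317).

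Complement genes went both ways. Of 25 tested, 5 rose (C6, C8g, Cd46, Cd59b and Cfd) and 4 fell (C3, Cfp, Hc and Serping1), where 8.35% of all genes rose and 24.2% fell. C6, a component of the membrane attack complex, rose by 0.91 ± 0.26 (adjusted p = 0.007575), and Cd59b, which blocks that complex on the body's own cells, by 0.93 ± 0.21 (adjusted p = 0.000826). C8g, another part of the complex, had 18, 29.5 and 49.7 counts on starch/palmitate and 11.1, 16.9 and 24.2 on starch/oleate (0.90 ± 0.31, adjusted p = 0.02175), a call lost without starch/palmitate replicate 7 (0.0721). Cd46, a membrane cofactor of complement factor I, differed by 0.85 ± 0.33 (adjusted p = 0.042) at counts of 16.7, 22.3 and 39.5 on starch/palmitate and 7.2, 12.4 and 19.6 on starch/oleate, and lost its call without starch/palmitate replicate 3, 5, 6 or 7 or starch/oleate replicate 1, 3, 5, 6, 7 or 9 (adjusted p up to 0.126). The starch/oleate medians of C8g and Cd46 lay below the highest negative control count, 21. C3, the hub of the cascade, had 3537, 4997 and 6899.7 counts on starch/palmitate and 6557, 7158 and 8981 on starch/oleate, a difference of -0.55 ± 0.17 (adjusted p = 0.0118). Hc encodes complement component C5 and differed by -1.28 ± 0.36 (adjusted p = 0.00705), with 5 of 7 starch/palmitate samples below the lowest starch/oleate sample. The rises were 3 without starch/palmitate replicate 7; the falls were 7 without starch/palmitate replicate 4 and 2 without starch/palmitate replicate 5 or 6 or starch/oleate replicate 8.

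In the list of class I and CD1 presentation 5 of 11 genes rose (B2m, Bcap31, Cd1d1, H2-Q10 and Psmb7) and 0 fell, where 8.35% of all genes rose; the other 6 lay between -0.05 and 0.27. B2m, the light chain of class I molecules, had 64188, 68202 and 127798 counts on starch/palmitate and 43784, 53671 and 78485 on starch/oleate, a difference of 0.37 ± 0.13 (adjusted p = 0.0272). Starch/palmitate replicate 3 held the highest count, and the call was lost without it (0.19) or without starch/oleate replicate 1 (0.0612). Of 9 class II genes 8 had positive differences and 2 passed, where 8.35% of all genes rose. The median of the class II list was 0.49, against -0.13 over all genes. H2-Aa, a class II alpha chain, had 7873, 9194 and 24936 counts on starch/palmitate and 5390.3, 9981 and 15023 on starch/oleate (0.57 ± 0.23, adjusted p = 0.0498), so its median was lower on starch/palmitate while the fitted difference was positive. H2-Ab1, its beta chain, differed by 0.62 ± 0.23 (adjusted p = 0.03695). When control A over control B, described last, was a covariate, neither passed (adjusted p = 0.34 for H2-Aa and 0.381 for H2-Ab1). Starch/palmitate replicates 3, 4 and 6 held at least 16772 H2-Aa counts and the other 4 at most 9194. Under TMM scaling 7 class II genes rose, and without the libraries rich in epithelial RNA or without starch/palmitate replicate 3, 4 or 6 there were 0 in edgeR, with 0 to 4 at an unadjusted p below 0.05. Leaving out starch/oleate replicate 1, 3 or 4 also left 0, with 4 to 6 at an unadjusted p below 0.05, while leaving out starch/palmitate replicate 1, 2, 5 or 7 or starch/oleate replicate 8 gave 6, and leaving out starch/oleate replicate 2, 6, 7 or 9 gave 1.

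Interferon genes showed no common direction: of 21 tested 2 rose (Cxcl9 and Ifngr1) and 4 fell (Ifnar1, Ifngr2, Irf5 and Tyk2), with a median of -0.06. Of all genes 8.35% rose and 24.2% fell. Cxcl9, a chemokine that interferon gamma induces and that draws T cells, had 279, 340.1 and 2120.3 counts on starch/palmitate and 140, 252 and 771 on starch/oleate, a difference of 1.23 ± 0.37 (adjusted p = 0.0112). Starch/palmitate replicate 3 was the highest, and without it Cxcl9 differed by 0.74 (0.1055). Cxcl10, its close relative, did not pass (0.32 ± 0.35, adjusted p = 0.524). Ifngr2, a chain of the interferon gamma receptor, had 708, 847 and 1008 counts on starch/palmitate and 1026, 1079 and 1158 on starch/oleate with no overlap, a difference of -0.35 ± 0.092 (adjusted p = 0.00418) that did not pass with TMM scaling (0.149). Nfil3, a transcription factor of lymphoid and myeloid cells, differed by 0.94 ± 0.25 (adjusted p = 0.00418), and by 0.39 (0.116) without starch/palmitate replicate 3.

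The 2 largest positive differences, those of Pigr and H2-Q10, drew much of their size from starch/palmitate replicate 3. Pigr, the receptor that carries IgA across epithelia, had 8629 counts in that sample and 13.1 to 273 in the other 6 on starch/palmitate, against 2 to 223 on starch/oleate. Its difference was 4.87 ± 1.00 (adjusted p = 0.0003925) with that sample and 0.81 (0.401) without it. H2-Q10, a secreted class I molecule with close relatives in the same gene cluster, had 8669 counts there and 196 to 389.6 in the other 6, against 62.6 to 249 on starch/oleate. It rose by 3.53 ± 0.57 (adjusted p = 1.4e-05), and by 1.24 (0.00745) without the sample. Mme, which encodes neprilysin, a peptidase of epithelia and other cells, differed by 1.87 ± 0.48 (adjusted p = 0.00359) and by 0.70 (0.182) without it. Defb1, an epithelial defensin, had 17524 and 3564 counts in starch/palmitate replicates 3 and 1 and 2731 and 2632 in starch/oleate replicates 2 and 6, but at most 193 in the other starch/palmitate samples and 266 in the other starch/oleate samples (2.26 ± 1.21, adjusted p = 0.144).

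**Figure D3:**
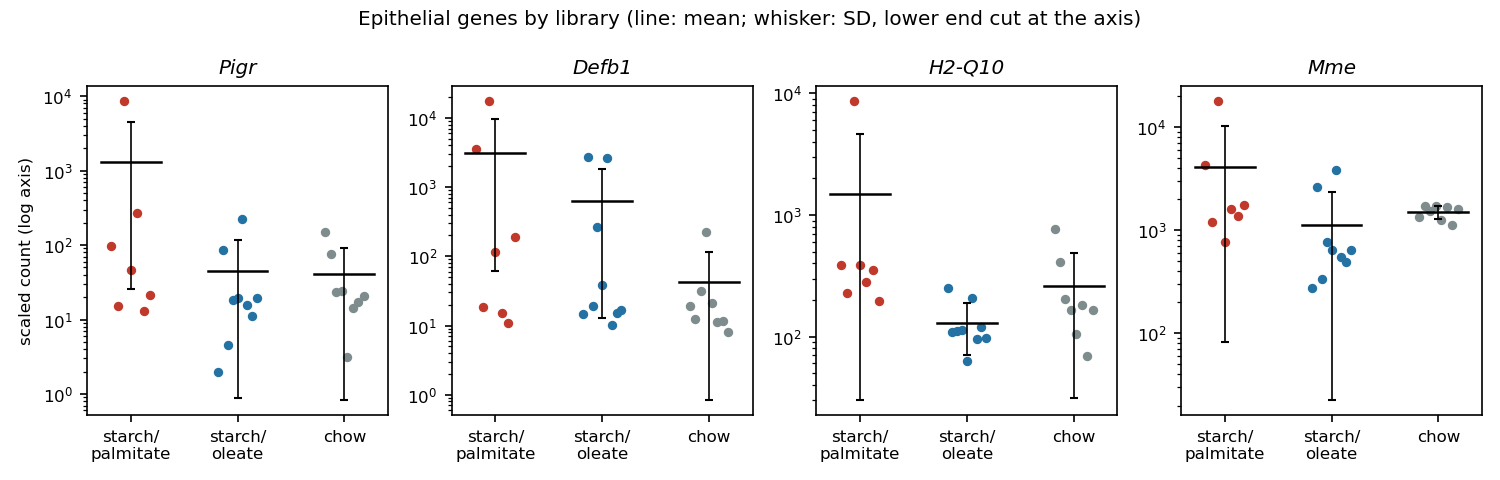
Counts of 4 epithelial genes, scaled to the reference genes and on log axes, in each starch/palmitate, starch/oleate and chow sample, with means and SD. Single starch/palmitate samples stand far above the rest, and for Defb1 and Mme a pair of starch/oleate samples does too.

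The epithelium list summed to 1925 to 44060 counts on starch/palmitate, 2576 to 16200 on starch/oleate and 2534 to 4789 on chow. Without the 4 starch libraries and the 1 Western diet library set apart by this list, 121 genes changed, 32 higher and 89 lower, 30 and 85 of them the same genes as with all libraries. Pigr (2.51, 0.00939), H2-Q10 (1.25, 0.0173), Mme (1.34, 0.000335) and Il17re, an interleukin 17 receptor chain of epithelia (1.27, 0.001265), were still higher on starch/palmitate in that fit, as difference and adjusted p; with all libraries Il17re rose by 1.39 ± 0.36 (adjusted p = 0.00346), and without starch/palmitate replicate 3 by 0.85 (0.0453). Cfd, Pparg, Cd1d1, Cdh5, Tfrc, Trem2 and Klra8 passed in the same direction there, while Cxcl9 (0.0795), Nfil3 (0.106), Itgax (0.0648), Xcl1 (0.0686), Cd46 (0.129) and Tollip (0.0505) missed the threshold, as adjusted p.

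Setting both diets beside chow shows where each lay. The 2 comparisons share the 8 chow samples, so their values are given side by side only. On starch/palmitate 124 of 491 genes differed from chow (25.3%) and on starch/oleate 296 (60.3%). Over all 491 genes, 20.6% were raised over chow on starch/palmitate and 48.3% on starch/oleate, and 4.68% and 12% were lowered. The genes that differed between the starch diets share the starch/oleate values with the chow comparison, so their choice favours a distance of starch/oleate from chow, and these counts are a description. Of the 119 genes lower on starch/palmitate than on starch/oleate, 23 were raised over chow on starch/palmitate and 110 on starch/oleate, and 97 had a starch/palmitate mean between chow and starch/oleate. Of the 41 higher genes, 7 were below chow by the test on starch/palmitate and 27 on starch/oleate. On starch/palmitate 7 of them were above chow, and 23 had a mean between chow and starch/oleate. How many of all 491 genes lay between was not counted. Trem2 differed from chow by 0.60 ± 0.30 (adjusted p = 0.1285) on starch/palmitate and 1.66 ± 0.30 (adjusted p = 8.61e-06) on starch/oleate. Fcgr2b differed by -0.06 ± 0.20 (adjusted p = 0.832) on starch/palmitate and 0.85 ± 0.19 (adjusted p = 0.000173) on starch/oleate.

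Among genes that stood higher on starch/palmitate, Cdh5 differed from chow by -0.34 ± 0.17 (adjusted p = 0.114) on starch/palmitate and -1.35 ± 0.16 (adjusted p = 2.795e-09) on starch/oleate. For Tlr5 these were -0.07 ± 0.24 (adjusted p = 0.8465) and -0.97 ± 0.23 (adjusted p = 0.00031), in the same order. Cfd was below chow on both diets, with differences of -1.92 ± 0.48 (adjusted p = 0.00298) on starch/palmitate and -4.11 ± 0.48 (adjusted p = 2.795e-09) on starch/oleate. Cd1d1 was too, with -0.91 ± 0.22 (adjusted p = 0.00278) on starch/palmitate and -2.40 ± 0.21 (adjusted p = 2.13e-12) on starch/oleate. C3, lower on starch/palmitate than on starch/oleate, was below chow on starch/palmitate (-0.52 ± 0.18, adjusted p = 0.023) and did not pass on starch/oleate (0.03 ± 0.16, adjusted p = 0.884). Cd36 too was below chow on starch/palmitate (-0.48 ± 0.15, adjusted p = 0.0157), and on starch/oleate it did not pass (-0.27 ± 0.14, adjusted p = 0.0984). The ratio of 2 positive controls, A over B, given below, was also entered as a covariate. With it 0 of the named genes that the test covers passed against chow on starch/palmitate in edgeR (14 at an unadjusted p below 0.05), against 27 without it. On starch/oleate 66 passed with it, against 69. The ratio ran from 3.17 to 3.39 on chow, 2.92 to 3.16 on starch/palmitate and 3.11 to 3.28 on starch/oleate. Chow and starch/palmitate did not overlap in it, so that fit cannot separate the diet from the ratio.

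**Figure D4:**
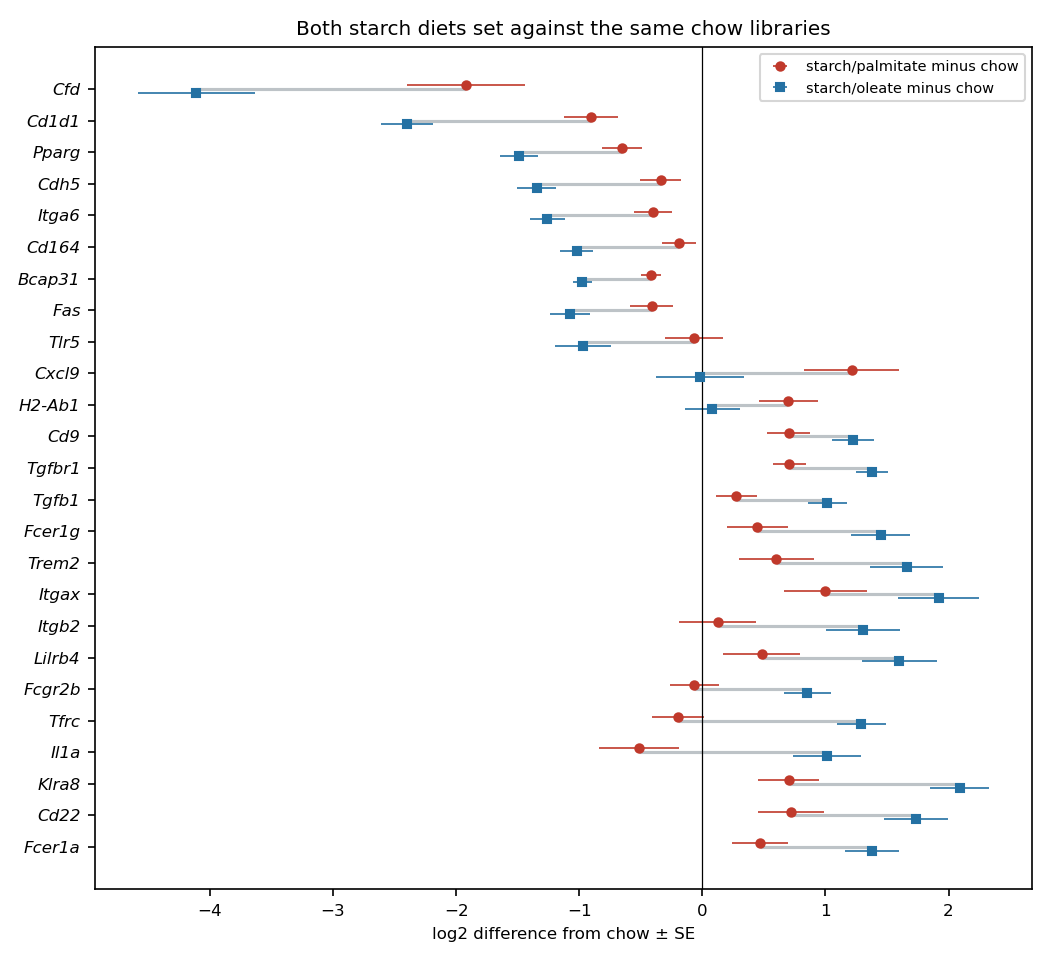
Log2 differences from chow ± SE for 25 genes on starch/palmitate (circles) and starch/oleate (squares), measured against the same 8 chow samples. For 20 of the 25 genes the circle lies between the square and the line at 0. The 25 genes are a selection, so this count describes them only.

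The same exchange of fats was made within the sucrose diets. Between sucrose/palmitate and sucrose/oleate 18 genes differed (3.67%), 11 higher and 7 lower. Of the 160 genes changed with starch, 128 had the same sign with sucrose (80%), against 334 of all 491 (68%), and 10 passed in the same direction: C8g, Ccl24, Cd46, Itgb1, Klra8, Lair1, Runx1, Tgfbr1, Tlr5 and Tnfaip3. The median size of the difference over these 160 genes was 0.63 with starch and 0.25 with sucrose; picking them for their change with starch favours the starch value. Tgfbr1 differed by -0.67 with starch and -0.61 ± 0.13 (adjusted p = 0.00783) with sucrose, Ccl24 by 0.73 and, larger with sucrose, 0.998 ± 0.22 (adjusted p = 0.00783), and Klra8 by -1.39 and -0.89 ± 0.23 (adjusted p = 0.02835).

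Whether the effect of the fat depended on the carbohydrate was tested by the interaction, the starch difference minus the sucrose difference. It passed for 27 genes (5.5%), 7 positive and 20 negative, and 23 of these had changed with starch. Tfrc differed by -1.49 with starch and -0.09 with sucrose, an interaction of -1.40 ± 0.28 (adjusted p = 0.00274). Counts of Tfrc were 727, 893 and 1165 on starch/palmitate and 1539, 2542 and 4066 on starch/oleate, as above, while the means were 831 ± 155 on sucrose/palmitate (SD, n = 8) and 884 ± 344 on sucrose/oleate (SD, n = 9). Cd1d1 had an interaction of 1.19 ± 0.29 (adjusted p = 0.0166) and Il1a of -1.83 ± 0.42 (adjusted p = 0.0105). The B cell genes Ms4a1 and Cd79b had opposite signs with the 2 carbohydrates, though none of the 13 of that list passed with sucrose. Ms4a1 differed by -1.08 with starch and 1.12 with sucrose (interaction -2.20 ± 0.60, adjusted p = 0.0228), and Cd79b by -1.03 and 1.11 (interaction -2.15 ± 0.52, adjusted p = 0.0153). The median of the B cell list was -0.72 with starch and 0.50 with sucrose. For Cfd (1.07 ± 0.62, adjusted p = 0.35), Pparg (0.64 ± 0.21, adjusted p = 0.0729), Cdh5 (0.67 ± 0.22, adjusted p = 0.0686) and Trem2 (-0.52 ± 0.41, adjusted p = 0.522) the interaction did not pass. In edgeR it passed for 0 genes when the positive control ratio was a covariate and for 0 with the lymph node mean as a covariate, where 79 and 82 had an unadjusted p below 0.05, and in DESeq2 it passed for 28 with neither. The mean of that control ratio, given below, was lower on palmitate than on oleate with starch and higher with sucrose.

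**Figure D5:**
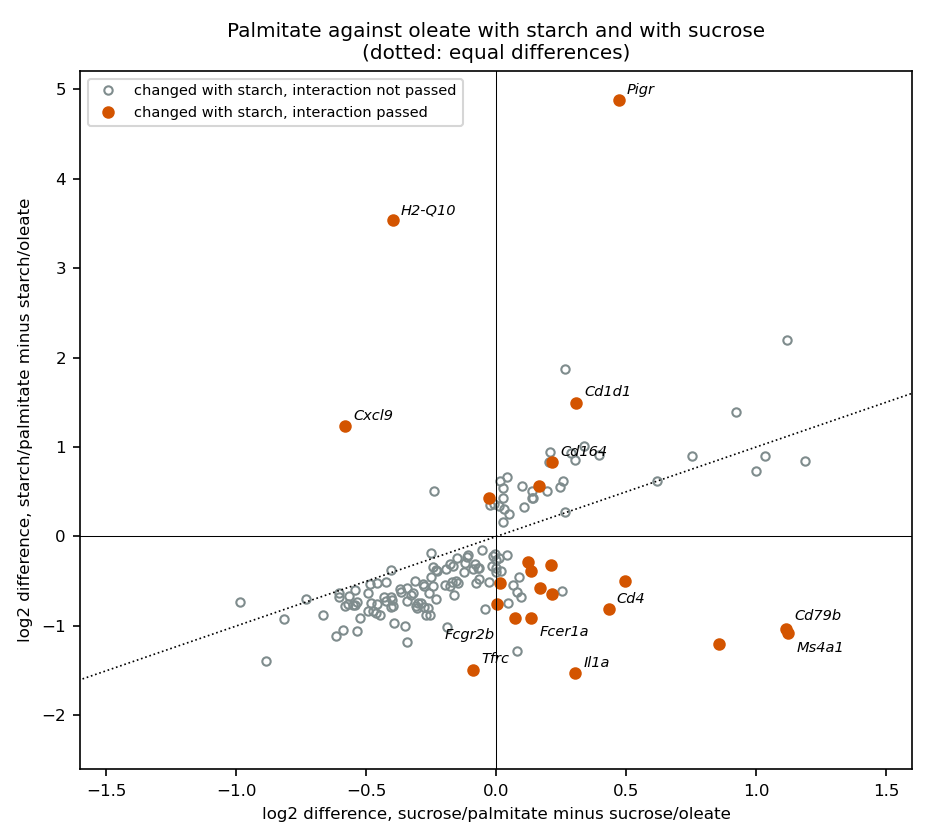
The palmitate minus oleate difference (log2) with starch, on the vertical axis, against that with sucrose, on the horizontal axis, for the 160 genes picked for their change with starch; filled points are the 23 whose interaction passed, and genes described in the text with a starch difference over 0.8 in size are named. The dotted line marks equal differences; 129 of the 137 open points and 20 of the 23 filled ones are larger in size with starch.

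A ratio of the added controls and some of the reference genes differed between the starch diets. Positive controls are added RNAs, independent of the tissue. Control B over control C differed by -0.021 (two-sided exact permutation test, p = 0.70). Control A over control B averaged 3.247 on sucrose/palmitate and 2.992 on sucrose/oleate, a difference that was not tested. On the starch diets control A over control B went the other way. It averaged 3.037 on starch/palmitate (2.92 to 3.16) and 3.197 on starch/oleate (3.11 to 3.28), a difference of -0.16 (two-sided exact permutation test over 11440 arrangements, p = 0.000874). With this ratio as a covariate 167 genes changed, with 32 of the 41 rises and 116 of the 119 falls kept; Cfd, Pparg, Cd1d1, Cdh5, Tfrc, Trem2 and Klra8 passed, and Ccl24 (0.0977), Cxcl9 (0.0921), B2m (0.149) and Tollip (0.331) did not, as adjusted p. The reference genes themselves did not all hold level: 6 of 14 passed between the diets, with Sdha 0.65 and Hprt 0.43 higher while Gusb differed by -0.74 and Tubb5 by -0.51. Scaled to the other 8 reference genes, 119 genes changed, 53 higher and 66 lower, and the 7 genes just named passed there as well.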

How the data were processed

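Total RNA of epididymal fat, taken with a commercial lipid tissue kit per the labels' protocols, was read on the nCounter Mouse Immunology panel. The deposited values are whole-number counts of barcodes per probe, taken as not yet normalized; 151 of 27600 values equal 1, the lowest, and whether the authors adjusted the counts before deposit is not given in the sources used here. Samples were grouped by their title. Counts were scaled by the geometric mean of 14 housekeeping genes, which were recognised by name, and the 491 of 547 genes that averaged 10 counts or more were fitted with edgeR 4.0.16 (R 4.3.3), 1 mean per diet over all 48 samples, glmQLFit and glmQLFTest, Benjamini-Hochberg threshold 0.05. Over all 120 pairs of starch libraries the lowest chi-square per degree of freedom was 6.01, so no library was counted as a repeat of another. Gene-probe totals ran from 474456 to 888687 per starch sample, and values within reach of the negative controls are the least precise. On simulated data of 491 genes for this comparison, the test called 67.2% of genes changed 1.5-fold, 92.5% at 2-fold, 98.5% at 4-fold and 1.72% of unchanged genes. The simulated data used the same scaling factors as the fit, genes drawn independently and changes of random sign. These rates do not cover errors of scaling or shifts shared between genes.

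Alternatives were TMM scaling, 8 reference genes that did not pass between the diets, DESeq2 1.42.0, no filter on counts, a minimum average of 30, the replicate number as a block, covariates for the positive control ratio or the lymph node list, the 2 starch groups alone, subtraction of the negative control mean, and leaving out each library or those whose epithelium score lay over 3 median absolute deviations above the median. The members, gene lists and named genes were chosen with earlier results of these data known. The rule for named genes took, among genes that passed, the 12 largest rises and 12 largest falls, then up to 3 genes per list, the 5 smallest interaction p-values and a set of marker genes; 14 genes described outside this rule (B2m, Blnk, C3, C8g, Cd46, Defb1, Icam2, Kit, Map4k4, Pecam1, Plau, Tollip, Tyrobp and Zeb1), and those named only as members of a count, were chosen after their values were seen. Some genes that the rule or a list holds are not reported here. Promoters came from RefSeq (GRCm38.p6), where 490 of the 491 symbols matched and 368 had a sequence.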

Additional observations from a re-analysis of the deposited data

Results flagged for a closer look

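Some samples stood apart from the others of their diet by Dixon's test at the 95% level, in scaled counts on the log2 scale. Starch/palmitate replicate 3 held the highest B2m (127800), H2-Q10 (8669), Nfil3 (414.7) and Tlr5 (146.7) counts of its diet, the same sample that held the most Pigr, Defb1 and Mme. Starch/oleate replicate 6 held the lowest Itgb2 (3409), Lilrb4 (4721), Cd22 (123.8) and Il12rb2 (34.5) counts of its diet. Starch/palmitate replicate 1 held 21.3 counts of Cd4, starch/oleate replicate 1 held 1907 of Ccl2 and 4 of Nos2, and starch/oleate replicate 3 held 9 of Il1a and 1687 of Tollip. These are 13 of 144 pairs of gene and diet examined, and chance alone sets apart about 1 in 20.

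Between the carbohydrates, the palmitate minus oleate difference was tested by the interaction, starch minus sucrose, in edgeR's quasi-likelihood test. It was positive for Bcap31 (0.40), Cd164 (0.61), Cd1d1 (1.19), Cxcl9 (1.82), H2-Q10 (3.93) and Pigr (4.40). It was negative for Tfrc (-1.40), Il1a (-1.83), Fcgr2b (-0.99), Fcer1a (-1.04), Kit (-1.03), Cd4 (-1.24), Cd79b (-2.15) and Ms4a1 (-2.20). Without starch/palmitate replicate 3 the interaction was 0.34 for Pigr (adjusted p = 0.898), 1.64 for H2-Q10 (0.0362), 1.325 for Cxcl9 (0.115) and 0.501 for Cd164 (0.107). Pigr also lost its call without starch/oleate replicate 1, 3, 4, 5, 7, 8 or 9, Cd164 without starch/palmitate replicate 5 or 7 or starch/oleate replicate 1, 3, 4, 5, 7 or 8, and Fcer1a without starch/palmitate replicate 1, 2, 3 or 5 or starch/oleate replicate 7 or 8. Bcap31 lost it without starch/palmitate replicate 5 and Kit without starch/palmitate replicate 1, while 8 of the 14 genes, H2-Q10 among them, kept it without any single starch library. Of the 56 genes too low to be tested, 0 averaged above both the highest chow sample and the highest negative control count on either starch diet.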

How the results depend on the processing

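The number of genes changed between the starch diets, 160, was 119 to 168 under the alternatives other than leaving out single libraries, except 61 with the lymph node mean as covariate, which shares genes with those tested. Genes higher numbered 82 with TMM scaling, and genes lower 67 with TMM scaling, 66 with the 8 reference genes that did not pass between the diets and 24 with the lymph node covariate; the cause was not tested. Leaving out each library in turn gave 120 to 192 genes changed, 27 to 47 higher, 83 to 151 lower and 21 to 37 interactions, the lowest number of rises without starch/palmitate replicate 3. In edgeR the interaction passed for 0 genes when the positive control ratio was a covariate and 0 with the lymph node covariate, against 27 without a covariate and 28 in DESeq2; 79 and 82 genes had an unadjusted p below 0.05. Named genes passing against chow on starch/palmitate were 0 in edgeR with the positive control ratio (14 at an unadjusted p below 0.05), against 18 to 28 under the other alternatives; on starch/oleate they were 47 to 72. Starch/palmitate and chow did not overlap in the positive control ratio of A to B. The positive control ratio of B to C differed by -0.021 between the starch diets (two-sided exact permutation p = 0.70), against -0.16 for A to B. With the lymph node covariate Cd79b (0.056) and Ms4a1 (0.073) turned sign. With the replicate number as a block 137 genes changed, 34 higher and 103 lower, with 19 interactions. The labels do not say whether samples of the same number belong together. Same-numbered deviations of the 7 pairs correlated between -0.59 and -0.03, and 0 of 7 starch/palmitate samples correlated best with its own number. These correlations cannot settle whether the numbers mark a pairing or a batch. Of 58 described genes that passed, 42 passed without each library in turn. Under the other alternatives 26 passed in every fit that gave them an adjusted p. Among these 26, Il1a had an adjusted p in 9 of the 11 alternatives and H2-Q10 in 10. For the interaction and for chow, subtraction of the negative control mean and the 8 reference genes were added after seeing the data, as were single libraries left out for the interaction. Counts near the negative controls (Il1a, Il6, Nos2, Hc, Cd46, C8g, Cd8a) limit what can be read from those genes.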
